A study of Gallus gallus with 9 samples.

Results

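The endothelin signal EDN1, its receptor gene EDNRA, and the transcription factor genes HAND2, HAND1 and GSC were followed across the facial prominences of the chicken embryo. The genes were taken by name from the platform annotation, which gave 1 probe set to each of the 5 genes, so the members were 5 of 13009 genes, and 5 of the 38439 probe sets tested. RNA came from normal, untreated embryos of unknown genotype at Hamburger Hamilton stage 18, grown at 38 degrees C, a stage with formed facial buds before the cytodifferentiation of their skeleton and muscle. The groups were the mandibular prominence (lower jaw bud), the maxillary prominence (the bud at the side of the upper beak) and the frontonasal mass (the bud at its middle). Each group had 3 pools of 26 to 32 pieces of mesenchyme with its epithelium, and 1 Affymetrix chicken array was run for each of the 9 pools. Of 6 measured genes of facial mesenchyme 5 were above background on every array, ALX4 being the exception, and so were all 6 measured genes of surface epithelium. On each array 49.2% to 53.3% of all probe sets were above background, so this is a weak check of the labelled tissue. It cannot show whether other tissue was included.

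Endothelin 1 is a small secreted peptide made in the pharyngeal arches by ectoderm, endoderm and core mesoderm. It acts through the endothelin receptor type A, a G protein coupled receptor carried by the neural crest mesenchyme around those sources. In mouse and zebrafish this signal gives the lower part of the first arch its identity by inducing DLX5 and DLX6, which in turn are needed for HAND2 in the ventral mesenchyme. HAND1 and HAND2 are related basic helix-loop-helix factors of the distal arch, heart and limb, and GSC (goosecoid) is a homeobox repressor needed for normal jaw and ear skeleton in mouse.

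Values are deposited intensities scaled to the same median on every array. Background was set on each array from 598 probe sets that target viruses or reporter genes, at their 95th percentile, and lay between 31.6 and 37.1. A call is an adjusted p under 0.05 in limma, with Benjamini-Hochberg adjustment over all probe sets, and differences are on the scale log2(signal + 16), which understates the change of dim probe sets. Frontonasal pool 2 stood apart from its group through some transcripts of internal organs. The fibrinogen gene FGB read 2292 there and 49.5 and 50.6 in frontonasal pools 1 and 3, and the transthyretin gene TTR read 1699 against 101 and 236. In the list of 10 genes of internal organs, APOA1, APOH, FABP1, AHSG and ALB were also highest in that pool among frontonasal pools. For ALB the margin was small (55.8 against 40.4 and 37.7), and AHSG was below background. AFP, VIL1 and RBP4 were not highest there, AFP reading 39 against 41.2 and 38.4. The main differences from the frontonasal group are therefore also given without that pool, a choice made after the data were seen. The ratio of 3' to 5' signal is a sign of RNA quality. For GAPDH it was 1.23 to 1.28 in mandibular, 1.19 to 1.29 in maxillary and 1.27 to 1.51 in frontonasal pools. For actin it was 2.01 to 2.17, 1.99 to 2.46 and 1.88 to 2.41 in the same order, with the lowest value in frontonasal pool 2. The part of RNA quality in the results was not tested. In pooled tissue, more cells of a type and more RNA per cell cannot be told apart.

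HAND2 was the gene of the 5 with the largest fitted difference between prominences. Its signal was 204, 196 and 171 in the mandibular pools, against 5.27, 16.6 and 3.68 in the maxillary pools and 5.15, 50 and 3.09 in the frontonasal pools. All mandibular pools were far above background, the maxillary pools were all below it, and only frontonasal pool 2 was above it among the other 6 arrays, so the mandibular arrays did not overlap with any other. HAND2 was higher in mandibular than in maxillary pools by at least 5.39-fold, with a fitted log2 difference of 3.11 ± 0.43 (SE, limma adjusted p = 0.0336). This was the difference of rank 4 by size among all probe sets higher in the mandibular prominence. Against the frontonasal mass it was higher by 2.78 ± 0.43 (adjusted p = 0.0123), and without frontonasal pool 2 by 3.36 ± 0.21 (adjusted p = 0.000333). Between maxillary and frontonasal pools the difference was -0.32, with a 95% confidence interval from -1.30 to 0.66 (adjusted p = 0.827), and it was 0.25 without frontonasal pool 2. That comparison therefore had no settled direction.

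The HAND2 calls depended on single arrays. Against the maxillary pools the call was lost without any 1 mandibular or maxillary pool (adjusted p values of 0.0951 to 0.149). The log2 difference stayed between 2.97 and 3.33. Calls over all probe sets in that comparison also fell in those fits, from 101 to as few as 15. Without frontonasal pool 2 the HAND2 call against the maxillary pools held, at 3.11 (limma adjusted p = 0.0011). Against the frontonasal pools it was lost without mandibular pool 1 (0.0553), mandibular pool 2 (0.0543) or frontonasal pool 1 (0.0502), with differences of 2.46 to 3.36 over the 9 fits.

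HAND2 also marks heart and arch mesoderm, and some heart genes had their highest mean in the mandibular pools. NKX2-5, a homeobox gene of heart progenitors, read 55.2, 86.2 and 93.4 in the mandibular pools, against 2.57, 3.91 and 5.26 in the maxillary pools and 2.42, 90.7 and 1.05 in the frontonasal pools. NKX2-5 was thus above background in the same 4 pools as HAND2, but frontonasal pool 2 was near the top of the NKX2-5 values and far below the mandibular pools for HAND2. TNNT2, a cardiac troponin gene, read 121, 87.8 and 129 in mandibular pools, against 20.6, 37.1 and 24.4 in maxillary and 20.2, 115 and 45.8 in frontonasal pools. The summed signal of the 9 measured genes of arch mesoderm and heart was 942 to 969 in mandibular, 400 to 447 in maxillary and 244 to 1544 in frontonasal pools. ISL1 averaged 445.7 in mandibular, 149.5 in maxillary and 151.8 in frontonasal pools, with 363 in frontonasal pool 2. MYF5 and the dim MYOCD also averaged highest in the mandibular pools. GATA4, TBX1, TCF21 and GATA6 did not, and GATA6 averaged highest in the frontonasal mass, with 147 in pool 2. GATA4 averaged 49.98 in mandibular, 53.45 in maxillary and 61.84 in frontonasal pools, TBX1 averaged 37.68, 38.59 and 40.23 in the same order, and TCF21 had its highest mean in the frontonasal mass, with 702 in pool 2. Over all 9 arrays 1 of these 9 genes, the muscle determinant MYF5, was called in mandibular minus frontonasal, where 4.14% of all genes were called, and 0 in mandibular minus maxillary (limma, 3 at an unadjusted p under 0.05), where 0.454% were called. Without frontonasal pool 2, MYF5, NKX2-5, TNNT2, GATA6 and ISL1 were called in mandibular minus frontonasal, 5 of 9 where 4.67% of all genes were called. The last 4 of these were then also called in mandibular minus maxillary, where 0.799% of all genes were called. Of the genes of autonomic neurons, another site of HAND2, 4 were measured, and their sum was 136 to 167 in mandibular, 131 to 159 in maxillary and 120 to 147 in frontonasal pools. The part of these cells in the HAND2 result was not tested.

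**Figure D1:**
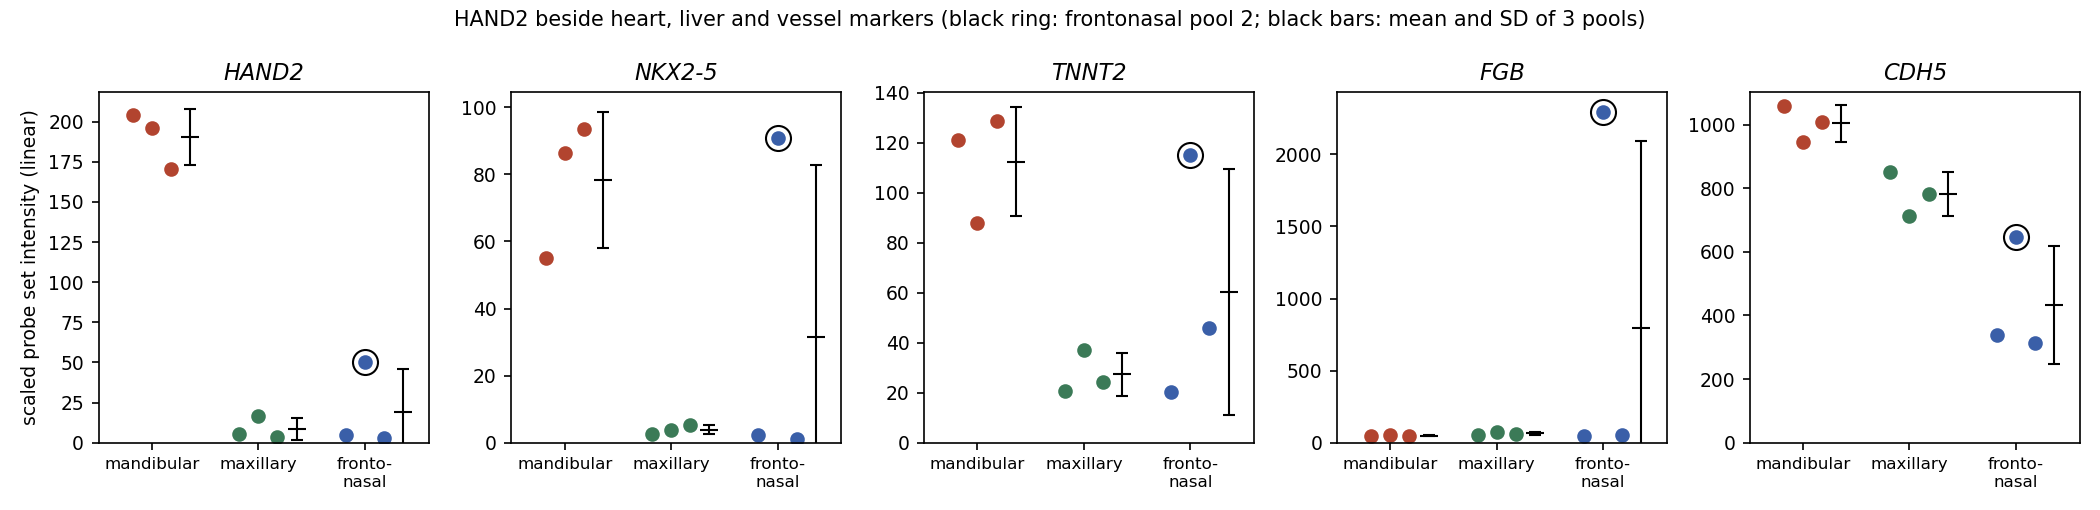
Scaled intensity (linear, from 0) of HAND2, the heart genes NKX2-5 and TNNT2, the liver gene FGB and the vessel gene CDH5 in 3 mandibular, 3 maxillary and 3 frontonasal pools, with 1 point per array and black bars for the mean and SD of 3 pools (bars that would pass below 0 end at the axis). Frontonasal pool 2, ringed, reads 50 for HAND2, 90.7 for NKX2-5 and 2292 for FGB, while the mandibular pools read 171 to 204 for HAND2 and 46.6 to 51.4 for FGB.

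HAND1 stayed at the floor of the array. Its signal was 1.30 to 1.64 in mandibular, 1.24 to 3.20 in maxillary and 1.21 to 1.48 in frontonasal pools, below background on all 9 arrays, so no fold is given. On each array between 22.6% and 44.2% of the background probe sets were dimmer than the HAND1 probe set. HAND1 was therefore not detectable in any prominence with this probe set, which does not show that the gene was silent. On the arrays on which HAND2 read 171 to 204, the HAND1 probe set read 1.30 to 1.64. At the floor it cannot show whether HAND1 follows HAND2.

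GSC set both jaw prominences apart from the frontonasal mass. Its signal was 83.2, 74 and 48.4 in the mandibular pools and 85.9, 69.7 and 58.9 in the maxillary pools, against 9.69, 17.2 and 10.1 in the frontonasal pools. Every jaw pool was above background and every frontonasal pool below it, with no overlap. GSC was at least 1.98-fold higher in mandibular pools (log2 difference 1.56 ± 0.19, limma adjusted p = 0.00386) and at least 2.09-fold higher in maxillary pools (1.63 ± 0.19, adjusted p = 0.00347). The differences were 1.68 and 1.74 without frontonasal pool 2. Both calls held in all 9 fits that left out 1 array, with highest adjusted p values of 0.0239 and 0.0186. Mandibular and maxillary pools overlapped, and their difference was -0.06, with a 95% confidence interval from -0.49 to 0.37. It changed sign without mandibular pool 3 (0.12) or maxillary pool 1 (0.05). The spread of GSC among mandibular pools, an SD of 18 around a mean of 68.6, was wider in proportion than that of HAND2, 17.4 around 190.3.

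The ligand gene EDN1 was dim and showed a small difference. Its signal was 70.7, 58.5 and 60.2 in the mandibular pools, against 44.9, 43.8 and 45.1 in the maxillary pools and 43.2, 46.7 and 44.7 in the frontonasal pools. All 9 values were above background, by a narrow margin outside the mandibular prominence, where 96.7% to 98% of the background probe sets were dimmer, and the mandibular pools did not overlap with the others. The mean mandibular signal was 1.41 times the frontonasal and 1.42 times the maxillary mean. Neither difference passed the test over all probe sets, with log2 differences of 0.38 ± 0.08 against frontonasal pools (limma adjusted p = 0.057) and 0.38 ± 0.08 against maxillary pools (limma adjusted p = 0.176). The comparison with frontonasal pools passed with quantile normalization (0.0468) or a pseudocount of 64 (0.0345), and its adjusted p was 0.0345 to 0.161 over all alternatives (0.0877 without frontonasal pool 2). Maxillary and frontonasal pools differed by -0.01, with a 95% confidence interval from -0.19 to 0.18.

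Markers of cells that can make EDN1 were also unequal. The summed signal of 10 endothelial genes was 3095 to 3298 in mandibular, 2747 to 3366 in maxillary and 1719 to 2139 in frontonasal pools. FLI1 and CDH5 made up most of this sum. CDH5, SOX18 and CD34 were called higher in mandibular, and SOX18, FLI1 and CD34 in maxillary than in frontonasal pools. Of all genes 1.83% and 1.31% were called higher there. Of 9 fits without 1 array, 8 lost the CDH5 call, and 6, 9 and 1 the maxillary calls. Between mandibular and maxillary pools 0 of 10 were called, where 0.454% of all genes were. Without frontonasal pool 2, CDH5, KDR, TIE1, SOX18 and CD34 were called higher in both jaw prominences than in frontonasal pools. FLI1, PECAM1, TEK, ERG and EGFL7 were not. KDR alone was then called higher in mandibular than in maxillary pools (0.57, limma adjusted p = 0.0285). In those fits 4.67% (mandibular minus frontonasal), 3.38% (maxillary minus frontonasal) and 0.799% (mandibular minus maxillary) of all genes were called. FLI1, TEK, TIE1 and ERG averaged highest in maxillary pools. The sum of 5 pharyngeal endoderm genes was 836 to 924 in mandibular, 560 to 611 in maxillary and 434 to 1439 in frontonasal pools, highest in frontonasal pool 2. HHEX made up most of this sum. FOXA2 and SHH also averaged higher in mandibular than in maxillary pools. PAX9 did not, with means of 108 in mandibular, 136.3 in maxillary and 36.08 in frontonasal pools, and NKX2-1 was below background on all arrays. Over all 9 arrays PAX9 alone of these genes was called, higher in both jaw prominences than in frontonasal pools. Without frontonasal pool 2, HHEX, FOXA2 and SHH were also called higher in mandibular than in frontonasal pools. HHEX alone was then called higher in mandibular than in maxillary pools (0.75, limma adjusted p = 0.0373). The summed signal of 6 surface epithelium genes was 4812 to 4972 in mandibular, 3942 to 4514 in maxillary and 5478 to 6297 in frontonasal pools. EPCAM made up most of that sum, and KRT14 was the 1 called epithelial gene higher in the jaw prominences. CDH1 was called lower in mandibular (-0.86, limma adjusted p = 0.041) and maxillary pools (-1.09, 0.0159) than in frontonasal pools. DSP was also lower in mandibular (-0.53, 0.0396) and EPCAM in maxillary pools (-0.48, 0.0178). These calls were lost in 8, 2, 8 and 3 of 9 fits without 1 array. TP63 and GRHL3 were not called, where 4.14% (mandibular) and 3.52% (maxillary) of all genes were. KRT14 was called higher in mandibular than in frontonasal pools (0.93, limma adjusted p = 0.00967), while DSP was called lower in maxillary than in frontonasal pools (-0.85, limma adjusted p = 0.00491), and both calls held in all 9 fits without 1 array. KRT14 was also called higher in maxillary than in frontonasal pools (adjusted p = 0.0357), a call lost in 7 of the 9 fits, all but those without maxillary pool 3 or frontonasal pool 2. EDN1 itself was 46.7 in frontonasal pool 2 and 43.2 and 44.7 in the other frontonasal pools. The part of these tissues in the EDN1 values was not tested.

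The receptor gene EDNRA ran the other way, lowest where HAND2 and EDN1 read highest. Its signal was 573, 503 and 533 in the mandibular pools, against 817, 857 and 666 in the maxillary pools and 1265, 941 and 1219 in the frontonasal pools. The 3 prominences did not overlap, in the order mandibular, maxillary and frontonasal, and all arrays were well above background. EDNRA was lower in mandibular than in frontonasal pools by a log2 difference of -1.06 ± 0.14 (limma adjusted p = 0.00585), and the mean mandibular signal was 0.47 times the frontonasal mean. The difference was -1.19 without frontonasal pool 2. This call held in all 9 fits without 1 array, with a highest adjusted p of 0.0334. Neighbours in the order were not separated by the test. Maxillary minus frontonasal was -0.54 ± 0.14 (95% confidence interval -0.85 to -0.22, adjusted p = 0.108), and it passed only without frontonasal pool 2, at -0.67 (0.0435). Mandibular minus maxillary was -0.52 ± 0.14 (95% confidence interval -0.84 to -0.20, adjusted p = 0.312). The summed signal of 6 genes of mesenchyme, the tissue that carries this receptor, was 2668 to 3031 in mandibular, 2514 to 3136 in maxillary and 1538 to 1735 in frontonasal pools, with overlap between mandibular and maxillary pools. PRRX1 and MSX1 made up most of this sum. Those same 2 of the 6 genes were called higher in mandibular than in frontonasal pools, where 1.83% of all genes were called higher. PRRX1 was also called higher in maxillary than in frontonasal pools, where 1.31% were, and MSX1 in mandibular than in maxillary pools, where 0.292% were. PDGFRA averaged 53.83 in mandibular, 64.53 in maxillary and 69.46 in frontonasal pools, the same order as EDNRA, and was not called. TFAP2A also averaged highest in frontonasal pools, with 91 in mandibular, 86.95 in maxillary and 114.9 in frontonasal pools, and was not called. TWIST1 averaged lowest in frontonasal pools, without a call, and ALX4 was below background on all arrays. The median log2 difference of the 6 genes for mandibular minus frontonasal was 0.04. The part of the amount of mesenchyme in the EDNRA values was not tested. Of these 6 genes, 3 (TWIST1, MSX1 and ALX4) are also in the arch gene and HAND partner lists described further on.

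**Figure D2:**
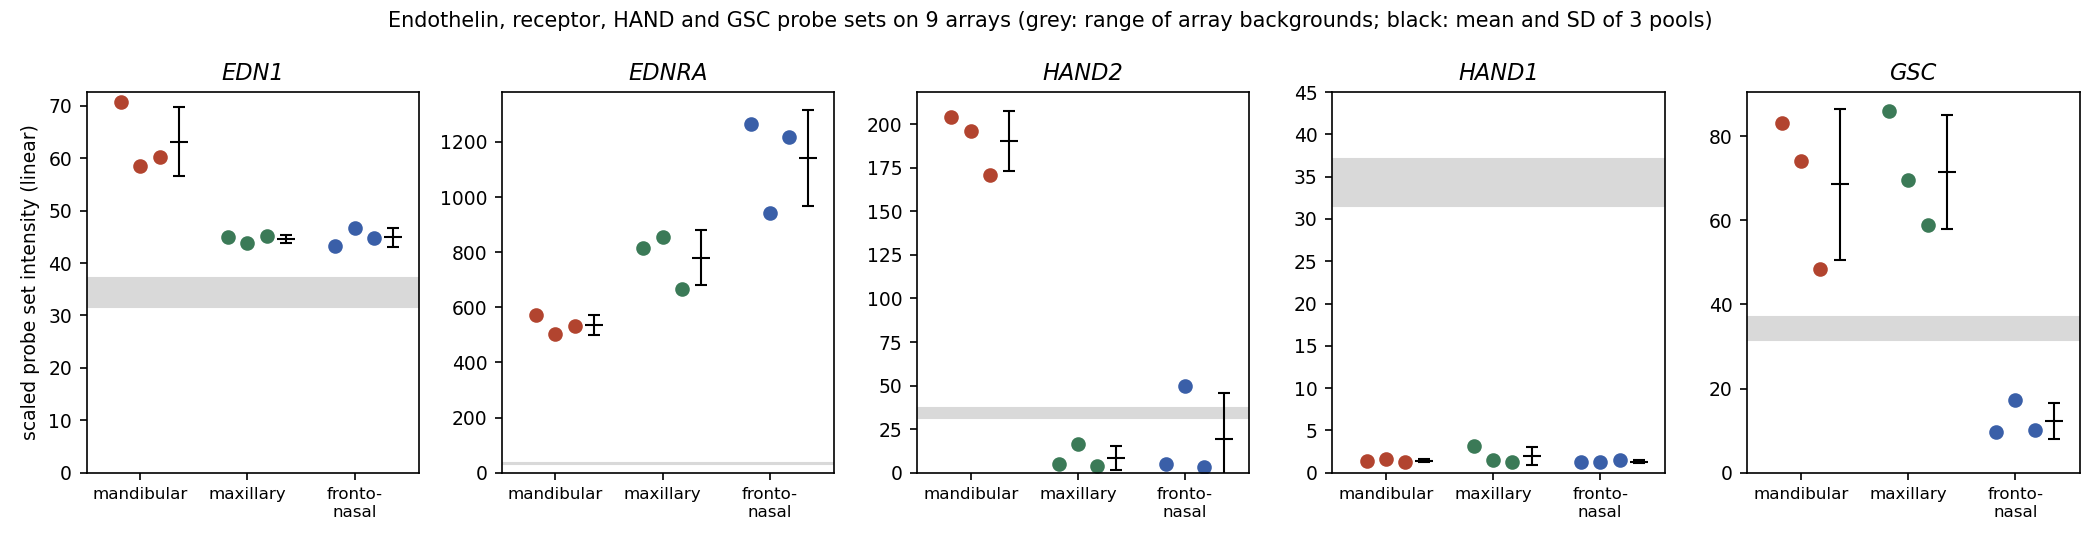
Scaled intensity (linear, from 0, a different range in each panel) of EDN1, EDNRA, HAND2, HAND1 and GSC in the mandibular, maxillary and frontonasal pools, with 1 point per array, black bars for the mean and SD of 3 pools (ended at 0) and a grey band for the range of the array backgrounds, 31.6 to 37.1. HAND2 stands above the band in all mandibular pools and in frontonasal pool 2, GSC in all mandibular and maxillary pools, EDN1 and EDNRA on all arrays and HAND1 on none.

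Between mandibular and frontonasal pools, 3 of the 5 genes were called, HAND2 and GSC higher and EDNRA lower, where 2.53% of all probe sets were called, 1.18% higher and 1.35% lower. Arrays did not overlap for 4 of the 5, against 18% of all probe sets. Between maxillary and frontonasal pools GSC alone was called, higher, where 2.25% of all probe sets were called, 0.911% higher and 1.34% lower. Arrays did not overlap there for 2 of the 5, GSC and EDNRA, against 17.6% of all probe sets. Between mandibular and maxillary pools HAND2 alone was called, higher, where 0.263% of all probe sets were called, 0.172% higher and 0.0911% lower, and arrays did not overlap for 3 of the 5, against 13.5%. The F test over the 3 prominences called EDNRA, HAND2 and GSC, 3 of the 5 genes, where 2.64% of all probe sets were called. Of all genes, each by its brightest probe set, 4.14%, 3.52% and 0.454% were called in the 3 comparisons, in the order given. The members were chosen with earlier results of these data known. Both comparisons with the frontonasal mass share its 3 arrays, and both mandibular comparisons share the mandibular arrays.

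**Figure D3:**
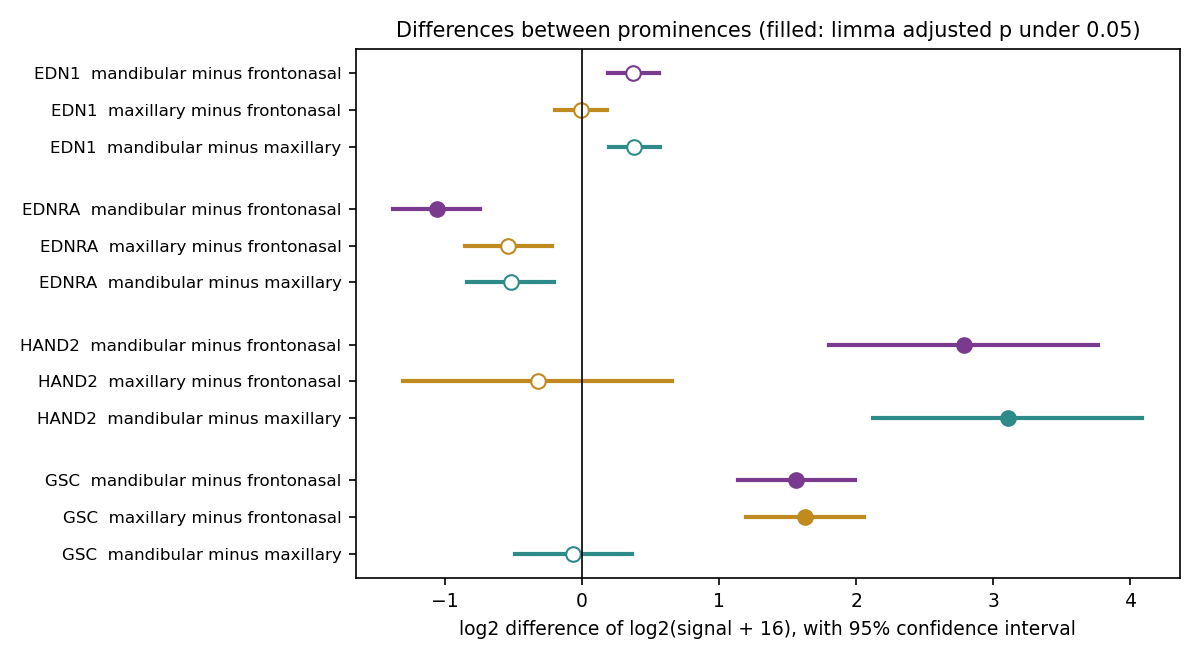
Fitted log2 differences of log2(signal + 16) with their 95% confidence intervals for EDN1, EDNRA, HAND2 and GSC in each of the 3 comparisons of prominences, 3 pools per group, filled where the limma adjusted p is under 0.05. HAND2 reaches 2.78 and 3.11 in the mandibular comparisons, GSC 1.56 and 1.63 against the frontonasal mass, and EDNRA -1.06 between mandibular and frontonasal pools.

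The endothelin pathway was counted over its whole list, EDN1 and EDNRA included, with each gene taken by its brightest probe set. Of 12 genes with a named probe set, in a list of 15 ligands, processing enzymes, receptors and transducers, 1 was lower between mandibular and frontonasal pools (EDNRA), 0 were higher and 11 did not pass, with 2 higher and 1 lower at an unadjusted p under 0.05 in limma. Of all genes, taken in the same way, 4.14% were called there, 1.83% higher and 2.31% lower. In each of the other comparisons 12 of 12 did not pass (1 higher and 2 lower at an unadjusted p under 0.05 between maxillary and frontonasal pools, and 2 higher and 1 lower between mandibular and maxillary pools), where 3.52% of genes (1.31% higher and 2.21% lower) and 0.454% of genes (0.292% higher and 0.161% lower) were called. The median log2 difference of the list was -0.04, -0.10 and 0.00 for mandibular minus frontonasal, maxillary minus frontonasal and mandibular minus maxillary, beside 0.01, 0.00 and 0.00 for all probe sets. At these background shares under 1 call is expected in a list of this length, so the counts are no result about the pathway.

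ECE1, the enzyme that cuts the endothelin precursor to its active form, averaged 179.5 ± 20.1 in mandibular, 164 ± 24.1 in maxillary and 168.2 ± 29.3 in frontonasal pools (SD, n = 3 each). FURIN, a protease that acts before ECE1, averaged 120.3 ± 15.7, 129 ± 11.5 and 130.8 ± 6.11 in the same order. For these probe sets the adjusted p values in limma were 0.735 to 0.979 over the 3 comparisons. A second, dimmer ECE1 probe set averaged 38.29 ± 8.49 in mandibular, 34.76 ± 6.22 in maxillary and 15.15 ± 12.7 in frontonasal pools, below background on all frontonasal arrays, and was not called (adjusted p = 0.155 and 0.209 against the frontonasal mass). EDN2, another ligand gene, was below background on all 9 arrays. GNAQ, which encodes a G protein subunit that relays the receptor signal, was below background on all arrays with its brightest probe set, and above it on 1 mandibular array with another of its 3 probe sets. Its paralogue GNA11 averaged 314.6 ± 10.3 in mandibular, 291.6 ± 1.22 in maxillary and 338.1 ± 30.9 in frontonasal pools, with no call.

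EDNRB, the type B receptor gene, read 40.9, 35.5 and 28.6 in mandibular pools and 66.6, 45.7 and 58.4 in maxillary pools. In frontonasal pools it read 11.7, 36 and 7.28. It was not called in any comparison of all 9 arrays (maxillary minus frontonasal 1.17 ± 0.27, adjusted p = 0.0774). Without frontonasal pool 2 it was higher in maxillary pools by a log2 difference of 1.51 than in the frontonasal mass (adjusted p = 0.0038), and mandibular pools were also higher (adjusted p = 0.0193). Frontonasal pools 1 and 3 and mandibular pool 3 were below background. A second EDNRB probe set averaged 29.97 ± 5.85 in mandibular, 44.76 ± 15.1 in maxillary and 11.61 ± 17.9 in frontonasal pools. It was below background on all frontonasal arrays and was not called over all 9 arrays. EDNRB2, a further B type receptor gene of birds and fish, averaged 58.2 ± 18.2 in mandibular, 60.2 ± 17.5 in maxillary and 85.3 ± 28.3 in frontonasal pools and was not called. MEF2C, a MADS box factor that relays endothelin signals to DLX5 and DLX6 in mouse, was above background on 1 of 3 mandibular arrays and on no other.

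Genes of the intermediate and ventral arch were counted in the same way. Of 15 measured genes in a list of 17, HAND1, HAND2 and GSC included, 7 were higher in mandibular than in frontonasal pools, 0 were lower and 8 did not pass, where 4.14% of all genes were called. The list's median log2 difference was 1.04, beside 0.01 for all probe sets. HAND2 and GSC are 2 of these calls and were already described, and the others were MSX2, PITX1, MSX1, DLX6 and DLX5. Between mandibular and maxillary pools 5 were higher, 0 lower and 10 did not pass (median 0.66, beside 0.00), where 0.454% of all genes were called, led by DLX6 and HAND2. Between maxillary and frontonasal pools 2 were higher (GSC and PITX1), 1 was lower (DLX6) and 12 did not pass (median 0.16, beside 0.00), where 3.52% of all genes were called. Without frontonasal pool 2 these counts were 8 higher and 0 lower, 4 higher and 0 lower, and 4 higher and 1 lower. In those fits 4.67%, 0.799% and 3.38% of all genes were called, in the same order.

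DLX6, which acts upstream of HAND2 in mouse, averaged 1096 ± 126 in mandibular, 114.5 ± 42.5 in maxillary and 384.8 ± 69 in frontonasal pools, so that its lowest level was maxillary, while HAND2 was below background on all maxillary and on 2 of 3 frontonasal arrays. Its log2 differences were 3.13 ± 0.23 for mandibular minus maxillary (adjusted p = 0.00192), 1.48 ± 0.23 for mandibular minus frontonasal (0.0123) and -1.65 ± 0.23 for maxillary minus frontonasal (0.00799). A dimmer DLX6 probe set averaged 54.83 ± 5.96 in mandibular, 12.44 ± 0.336 in maxillary and 22.01 ± 6.41 in frontonasal pools, and was called in both mandibular comparisons and not in maxillary minus frontonasal. The 2 probe sets of DLX5 disagreed. The brighter one averaged 3249 ± 341 in mandibular, 1465 ± 213 in maxillary and 1941 ± 277 in frontonasal pools. The dimmer one averaged 77.55 ± 16.2 in mandibular, 156.9 ± 26.8 in maxillary and 4.94 ± 1.03 in frontonasal pools, where it was below background. It was called higher in both jaw prominences than in the frontonasal mass (maxillary minus frontonasal 3.03 ± 0.16, adjusted p = 7.51e-05). Its mandibular minus maxillary difference was -0.89 ± 0.16 (adjusted p = 0.0935), so the order of DLX5 between the jaw prominences differs by probe set. MSX2, a BMP target of the distal mesenchyme, read 1052, 835 and 990 in mandibular pools, against 178, 194 and 154 in maxillary and 121, 274 and 204 in frontonasal pools. The brighter DLX5 probe set was called against frontonasal pools (0.74 ± 0.15, adjusted p = 0.0388) and against maxillary pools (1.15 ± 0.15, 0.028). It lost the first call in 7 of 9 fits without 1 array, all but those without maxillary pools 1 and 3, and the second without any 1 mandibular or maxillary pool, at up to 0.14 and 0.134. DLX6 lost its call against the frontonasal mass without mandibular pools 1 or 3 (highest 0.0563). MSX2 was higher in mandibular than in maxillary pools by 2.35 ± 0.24 (adjusted p = 0.0115), a call lost without mandibular pools 1 or 3 or any 1 maxillary pool (highest 0.082). MSX1, with a log2 difference of 0.79 ± 0.12 for mandibular minus maxillary, lost that call in all 9 fits (highest 0.158 without maxillary pool 3).

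For some ventral genes that did not pass, frontonasal pool 2 lay far above the other frontonasal pools. BARX1, a homeobox gene of the jaw and stomach mesenchyme, read 1825, 1413 and 1642 in mandibular and 1152, 959 and 853 in maxillary pools, against 362, 1214 and 373 in frontonasal pools. NKX3-2, a jaw joint and visceral gene, read 266, 272 and 317 in mandibular and 158, 204 and 163 in maxillary pools, against 18, 304.6 and 22.5 in frontonasal pools. Frontonasal pools 1 and 3 lay below all jaw pools for both genes, and frontonasal pool 2 within their range. Neither was called over all 9 arrays (adjusted p = 0.114 and 0.262 for mandibular minus frontonasal). Without frontonasal pool 2 both were called, BARX1 at 2.09 for mandibular and 1.38 for maxillary minus frontonasal, and NKX3-2 at 3.05 and 2.39. A second NKX3-2 probe set was below background on all arrays. Over all 9 arrays it was not called against the frontonasal mass (limma adjusted p = 0.961 for mandibular and 0.85 for maxillary pools). DLX3 and ALX4 were below background on all arrays.

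**Figure D4:**
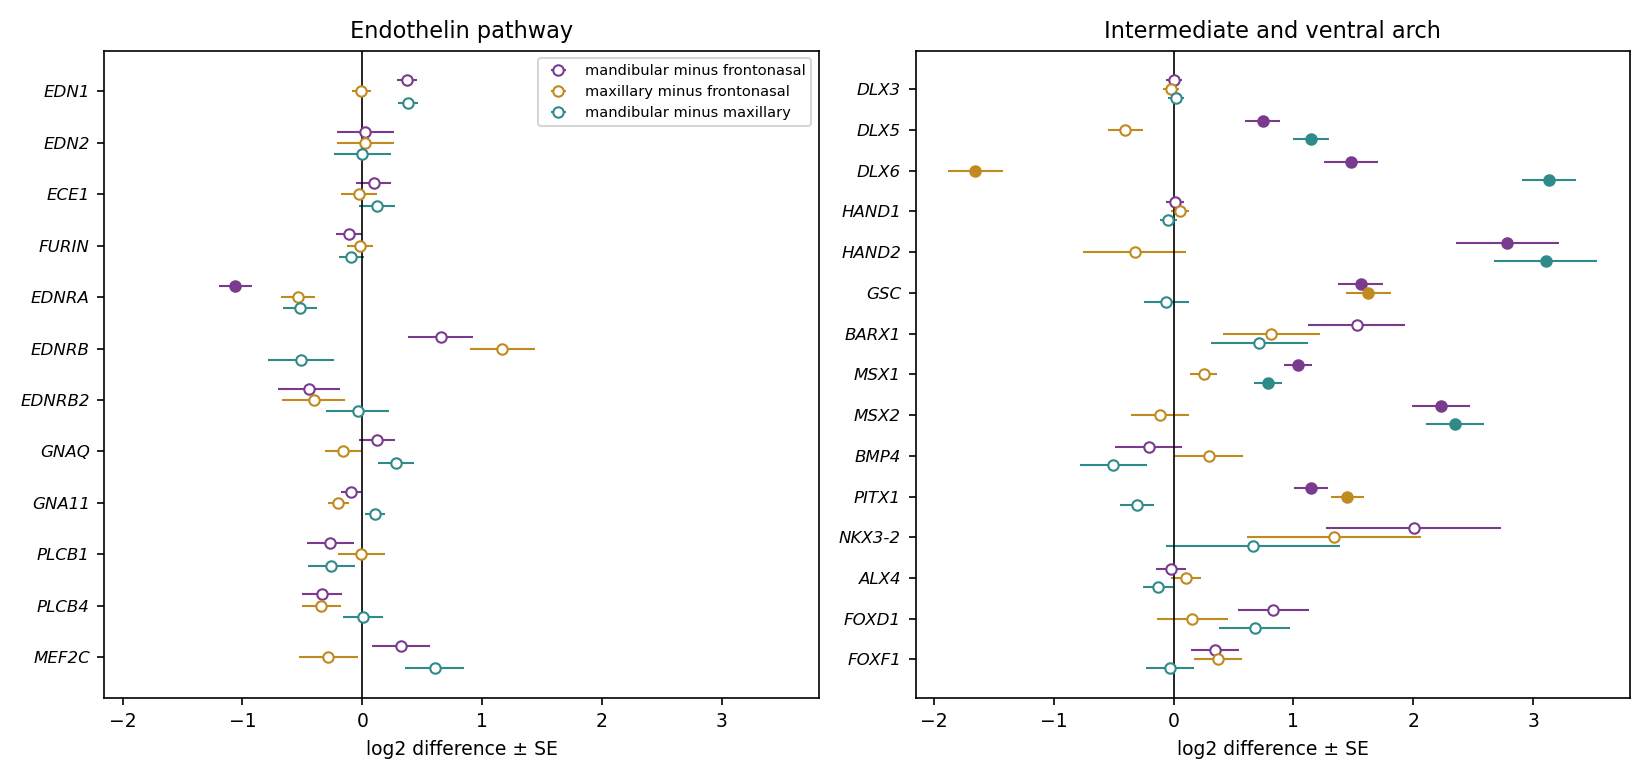
Fitted log2 differences ± SE of 12 endothelin pathway genes (left) and 15 intermediate and ventral arch genes (right), each by its brightest probe set, in the 3 comparisons of prominences, 3 pools per group, filled where the limma adjusted p is under 0.05 (the legend shows the colours only). In the endothelin pathway EDNRA alone is filled, at -1.06, while HAND2, DLX6 and MSX2 reach 3.11, 3.13 and 2.35 for mandibular minus maxillary.

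Of 5 measured dorsal arch genes in a list of 9, LHX8 and DLX1 were higher in both jaw prominences than in the frontonasal mass, as GSC was, and 3 did not pass, where 4.14% (mandibular) and 3.52% (maxillary) of all genes were called. Between mandibular and maxillary pools 0 of 5 passed (limma, with 0 higher and 2 lower at an unadjusted p under 0.05), where 0.454% of all genes were called. JAG1, the notch ligand that opposes endothelin signalling in the zebrafish arch, was below background on all arrays, and NR2F2, a nuclear receptor of the maxillary mesenchyme in mouse, averaged 1336 ± 117 in mandibular, 1466 ± 121 in maxillary and 1237 ± 59.6 in frontonasal pools with no call. Among 8 measured partners and regulators of HAND factors, TWIST2 was higher in mandibular (1.64 ± 0.21, adjusted p = 0.00581) and maxillary pools (1.90 ± 0.21, adjusted p = 0.00309) than in the frontonasal mass. FOXC2 was higher in mandibular than in frontonasal pools, by 1.17 ± 0.18 (adjusted p = 0.0133), a call lost without any 1 mandibular pool (highest 0.0593 without mandibular pool 1). Of the 8 genes 6 did not pass in mandibular minus frontonasal, 7 in maxillary minus frontonasal and 8 in mandibular minus maxillary. Of all genes 4.14%, 3.52% and 0.454% were called there. Without frontonasal pool 2, TWIST2 differed by 1.87 and 2.13 and FOXC2 by 1.13, and all were called. TWIST1, which competes with HAND2 for dimer partners, averaged 294.4 ± 48.1 in mandibular, 295.8 ± 61.5 in maxillary and 270 ± 33.6 in frontonasal pools, with adjusted p values of 0.848 to 1 in limma. With their brightest probe sets, the E protein genes TCF3, TCF4 and TCF12, whose products pair with HAND factors, were above background on all arrays and were not called in any comparison.

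Genes with the most similar profile were taken as the 5 highest Pearson correlations over the 9 arrays, among 10101 genes above background on at least 3 arrays. Since the arrays fall into 3 prominences, these values largely follow differences between groups, and deviations of single pools also enter them. The order of close groups can differ. HAND2 averaged 8.52 in maxillary and 19.4 in frontonasal pools, and CHODL, in its list below, averaged 267 and 257.7. HAND2 was most like GRIN3A, a glutamate receptor subunit gene (r = 0.992), MSX2 (0.969), CBLN1 (0.961), CHODL (0.958) and EFNB1, an ephrin gene (0.955). GRIN3A read 113, 130 and 116 in mandibular pools, against 27.4, 33.1 and 31.5 in maxillary and 27.8, 59.5 and 27.9 in frontonasal pools, so that frontonasal pool 2 was the highest of the 6 others for both genes. GSC was most like MAB21L2, a gene of eye and craniofacial development (0.991), TMEM74 (0.986), SNAI1, a zinc finger repressor gene of migrating crest (0.978), TWIST2 (0.973) and MAB21L1 (0.971). MAB21L2 read 538, 535 and 285 in mandibular and 474, 469 and 319 in maxillary pools, against 60.9, 96.7 and 44.7 in frontonasal pools. Mandibular pool 3 was the lowest mandibular pool for both GSC and MAB21L2.

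EDNRA was most like TOM1L1, an adaptor protein gene (0.983), ATP6AP1L (0.971), FGF8, a growth factor gene of facial ectoderm (0.967), ADAM33 and P4HA3 (0.958 each). TOM1L1 read 113, 104 and 109 in mandibular pools and 251, 239 and 218 in maxillary pools, against 509, 359 and 519 in frontonasal pools, the same order of prominences as for EDNRA. EDN1 was most like FLT1, a VEGF receptor gene of endothelium (0.965), RANBP9 (0.964), CBLN1 (0.961), SLC5A7 (0.96) and ARHGAP5 (0.956). FLT1 read 95.5, 60.4 and 80.6 in mandibular pools, against 43.6, 31.1 and 43.2 in maxillary and 33.1, 45.2 and 36.4 in frontonasal pools. RANBP9 lies on the same chromosome as EDN1 in the reference gene table, with 19 protein-coding genes between them. CBLN1, a secreted cerebellin, was the gene shared by the EDN1 and HAND2 lists, with 446, 384 and 327 in mandibular pools, against 119, 102 and 105 in maxillary and 86.9, 131 and 73.8 in frontonasal pools.

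The nearest genes on the chromosome were looked up as well. Of 20 protein-coding neighbours (2 on each side of each of the 5 genes), 17 had a probe set and 0 were called in any comparison (limma), with 2, 2 and 1 at an unadjusted p under 0.05 for mandibular minus frontonasal, maxillary minus frontonasal and mandibular minus maxillary. At the shares of all genes called there (4.14%, 3.52% and 0.454%), 0 of 17 is near the background. The neighbour with the smallest adjusted p was CEP44, beside HAND2, which averaged 55.6 ± 9.6 in mandibular, 34.1 ± 6.8 in maxillary and 34.3 ± 3.5 in frontonasal pools (0.50 ± 0.13 for mandibular minus frontonasal, adjusted p = 0.109). Its mandibular minus maxillary difference was 0.52 ± 0.13 (limma adjusted p = 0.284). CEP44 was above background on all mandibular arrays, on 1 of 3 maxillary and on 2 of 3 frontonasal arrays. FBXO8 and SAP30, also beside HAND2, differed by -0.06 ± 0.13 and -0.08 ± 0.11 in mandibular minus frontonasal. PRMT9 and TMEM184C, beside EDNRA, differed by -0.08 ± 0.10 and -0.31 ± 0.12, and DICER1, beside GSC, by 0.15 ± 0.15.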

How the data were processed

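The authors deposited 1 linear intensity per probe set and array. Per the labels' protocols, cRNA was made by the 2-cycle Affymetrix method from 500 ng of total RNA. The software that summarised probes is not stated in the labels or file. The authors had scaled the arrays, since the mean of each deposited column without its highest and lowest 2% was 150.03. Here 96 control probe sets were left out, arrays were scaled to a common median (factors 0.961 to 1.04) and log2(signal + 16) was fitted with limma 3.58.1 in R 4.3.3, as 1 model of group means over 9 arrays. Where 1 group was below background on all its arrays, the fold is a bound, computed from mean log2 signals with the dim group raised to the background of each array. Genes were named from the platform annotation, updated through a gene table (GRCg7b) used for names and gene order only, since the files name no build, and represented by their brightest probe set, which gave 13009 genes. The number of arrays limits precision, and p values measure the spread between pools, called biological replicates in the labels. The fit was tested on simulated data. Members, lists and tests were chosen with earlier results of these data known. Named genes are the members, the genes of the lists that pass or act directly in the pathway, the 5 most similar to each member above background on at least 3 arrays, neighbours, and markers. BARX1, NKX3-2, NKX2-5, TNNT2, FGB, TTR, ALX4, DLX3, GNAQ, GNA11, FURIN, JAG1, NR2F2, GATA4, TBX1, TCF21, EPCAM, DSP, KRT14, PRRX1 and PDGFRA and the individual neighbours were picked after their values were seen. So were APOA1, APOH, FABP1, AHSG, ALB, AFP, VIL1, RBP4, CDH1, TP63, GRHL3, HHEX, PAX9, NKX2-1, FOXA2, SHH, ISL1, GATA6, MYOCD, CDH5, SOX18, CD34, FLI1, TEK, TIE1, ERG, KDR, PECAM1, EGFL7 and TFAP2A. Alternatives were other scalings, pseudocounts, a filter, a variance trend, a replicate block, fits to 6 arrays and fits without each array.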

Additional observations from a re-analysis of the deposited data

How the results depend on the processing

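EDNRA between mandibular and frontonasal pools, and GSC in both comparisons with the frontonasal mass, kept direction and call in all 17 alternatives (-1.19 to -0.98, 0.79 to 2.15 and 0.82 to 2.22). EDN1 in mandibular minus frontonasal passed at 0.38 with quantile normalization and 0.22 with a pseudocount of 64. HAND2 in mandibular minus maxillary did not pass at 4.09 with a pseudocount of 4, and ranged from 2.97 to 3.33 without 1 array, against frontonasal pools from 2.46 to 3.36. Uncalled differences that changed sign were EDN1 in maxillary minus frontonasal (0.005 with values as deposited, -0.027 to 0.014 without 1 array), HAND2 in that comparison (-0.65 to 0.25) and GSC in mandibular minus maxillary (-0.19 to 0.12). EDNRA in maxillary minus frontonasal ran from -0.67 to -0.43 without 1 array.

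Calls over all probe sets were 974, 866 and 101 for mandibular minus frontonasal, maxillary minus frontonasal and mandibular minus maxillary. They were 526 to 1089, 424 to 797 and 15 to 174 without 1 array, and moved over 1.5 times without any 1 mandibular pool (545, 526 and 559) or frontonasal pool 1 (634) in the first comparison, without any 1 maxillary pool (535, 424 and 523) in the second, and without any 1 mandibular (15, 29 and 25) or maxillary pool (29, 18 and 21) or frontonasal pool 2 (174) in the third. They were 613 and 412 in fits to the 6 arrays of the first and second comparison, and 46 in the third with a pseudocount of 4. The F test called 1014, and 627 to 1009 without 1 array, the low counts being without mandibular pool 2 (627) or 3 (656), maxillary pool 2 (673) or frontonasal pool 1 (648). With the replicate number as a block the third comparison had 47 calls, and the block changed no call of a member. Labels do not say that numbers pair pools, same-numbered pools correlated at 0.017 to 0.12 in their deviations, and every pool correlated best with its own number. The cause of these changes was not tested.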
